A study of Mus musculus with 6 samples.

Results

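The HMGA chromatin genes and the oncofetal growth genes of the Lin28 and Igf2 network were described in bleomycin-injured mouse lung with and without *Clec7a*. The members were 9 genes chosen by symbol, namely *Hmga2*, *Hmga1*, *Igf2bp1*, *Igf2bp2*, *Igf2bp3*, *Lin28b*, *Plag1*, *Igf2* and *H19*. They were selected because *Hmga2* had the smallest unadjusted p of all genes tested between the genotypes, so every difference between genotypes below is a description of the members and not independent evidence. Of the 9 members, 8 were among the 26100 rows of the count table, and *H19* was not analysed here. *Lin28b* had too few counts to be tested, which left 7 members among the 16633 genes tested.

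The samples were whole lungs of 3 *Clec7a* knockout mice (KO) and 3 wild-type mice (WT), 1 RNA library per mouse. All 6 mice had received bleomycin, a DNA-damaging drug used to model lung fibrosis, into the airways, and lungs were taken at day 14. Saline-treated lungs were not analysed here, and the sources used here do not state strain, age or how *Clec7a* was deleted. The comparison asks how gene expression in the injured lung differs when dectin-1, the myeloid beta-glucan receptor that *Clec7a* encodes, is missing.

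HMGA proteins bind the minor groove of AT-rich DNA through short motifs called AT-hooks and bend it, which changes how other factors reach chromatin. They are abundant in embryonic tissue and scarce in most adult tissue, as are the RNA-binding proteins of the Lin28 and Igf2bp families. Lin28 proteins block the maturation of let-7 microRNAs, and let-7 in turn represses *Hmga2*, *Lin28b* and Igf2bp messages through sites in their 3' UTRs. *Plag1* encodes a zinc-finger transcription factor that activates *Igf2*, a growth factor gene imprinted together with the noncoding RNA gene *H19*.

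The let-7 sequences are shown because several members share matches to them. The members were named as genes of the Lin28 network, in which let-7 acts, so a match is not independent of their choice. Of 11 mouse let-7 family names in RefSeq (GRCm38.p6), 10 carry the seed GAGGUAG at bases 2 to 8, and let-7j carries GAGGUAU. In the lines below, capitals mark the seed.
mmu-let-7a-5p: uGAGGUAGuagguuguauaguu
mmu-let-7g-5p: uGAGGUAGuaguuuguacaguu
mmu-miR-98-5p: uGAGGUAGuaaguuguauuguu
mmu-let-7j: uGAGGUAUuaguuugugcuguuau

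The complement of the common seed, CTACCTC, was searched on the sense strand of the longest annotated 3' UTR of each gene. The 3' UTR of *Hmga2* held 4 matches in 3014 bases, at positions 58, 1295, 1733 and 2591 counted from the first base after the stop codon. *Igf2bp1* held 4 in 6337 bases and *Lin28b* 4 in 4445 bases. *Hmga1*, *Igf2bp2* and *Igf2bp3* held 1 match each, in 1183, 1784 and 2119 bases. *Plag1* (2694 bases) and *Igf2* (3050 bases) held none. The capitals below mark the match within 23 bases of the transcript strand (GENCODE M21, GRCm38), with all 4 matches of *Hmga2* and the first of each other member.
*Hmga2* match 1, chr10:120364220-120364242 (-): acattcaatttCTACCTCagcat
*Hmga2* match 2, chr10:120362983-120363005 (-): actcctcaataCTACCTCtgaat
*Hmga2* match 3, chr10:120362545-120362567 (-): tttgcaaggaaCTACCTCcacac
*Hmga2* match 4, chr10:120361687-120361709 (-): aaaacacactaCTACCTCttaag
*Hmga1*, chr17:27563281-27563303 (+): ctgttcacaaaCTACCTCtggac
*Igf2bp1*, chr11:95961774-95961796 (-): tgcgaagtaaaCTACCTCaaggt
*Igf2bp2*, chr16:22059469-22059491 (-): acaaataaaagCTACCTCaggtg
*Igf2bp3*, chr6:49086783-49086805 (-): tttttactcaaCTACCTCaggta
*Lin28b*, chr10:45381018-45381040 (-): gggcgggaagtCTACCTCatgca

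Across 21022 genes with an annotated 3' UTR, 1896 (9.02%) held at least 1 match and 12 (0.057%) held at least 4, with 8 as the largest number. Longer UTRs hold more matches by length alone. Among the 2438 UTRs between 80% and 125% of the length of the *Hmga2* UTR, 16.0% held at least 1 match and 3 held at least 4, *Hmga2* included. For *Igf2bp1*, whose UTR is longer, 34.3% of the 604 UTRs of like length held at least 1 match and 2 held at least 4, *Igf2bp1* included. For *Lin28b*, 24.3% of 1357 held at least 1 and 4 held at least 4, *Lin28b* included. A match is a description of the letters, and let-7 itself was not measured in these libraries.

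**Figure D1:**
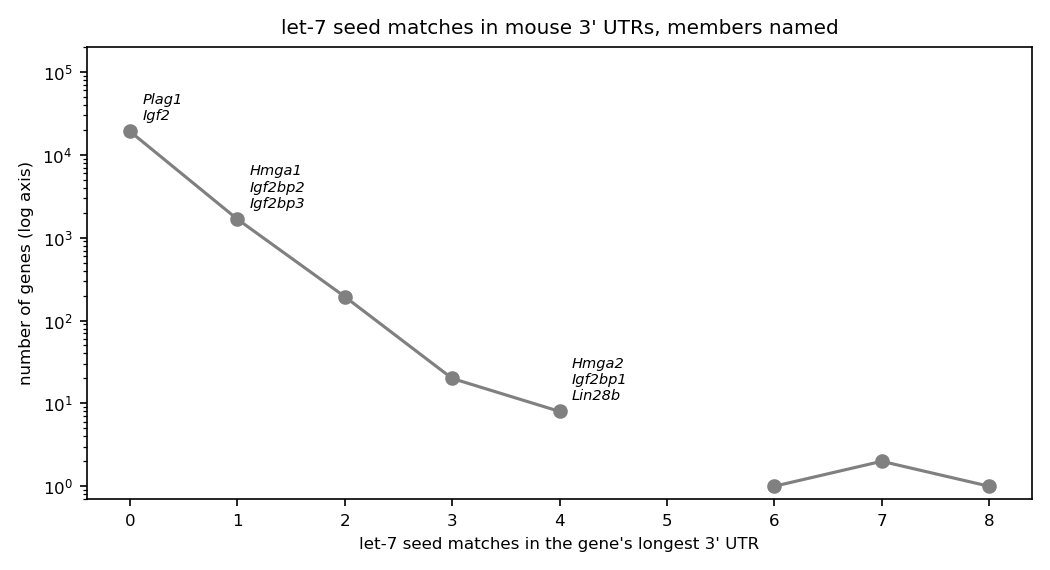
Number of mouse genes (vertical axis, log scale) by the number of let-7 seed matches in the longest 3' UTR (horizontal axis), with the members named beside the point they belong to. *Hmga2*, *Igf2bp1* and *Lin28b* lie at 4 matches, a number that 8 genes have, and *Plag1* and *Igf2* lie at 0.

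The start regions of *Hmga2* and *Hmga1* are shown because these are the HMGA genes and both were lower in every KO library. Each window runs from 250 bases before to 50 bases after the start (RefSeq, GRCm38.p6), and capitals mark the GC box GGGCGG on either strand (CCGCCC on the other).
*Hmga2*, chr10:120476420-120476719 (-): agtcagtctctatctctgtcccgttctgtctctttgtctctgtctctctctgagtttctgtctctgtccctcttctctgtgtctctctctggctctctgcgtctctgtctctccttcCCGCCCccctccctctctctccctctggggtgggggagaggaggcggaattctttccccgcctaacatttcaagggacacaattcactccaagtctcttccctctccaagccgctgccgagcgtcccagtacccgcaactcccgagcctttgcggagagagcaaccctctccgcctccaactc
*Hmga1*, chr17:27556324-27556623 (+): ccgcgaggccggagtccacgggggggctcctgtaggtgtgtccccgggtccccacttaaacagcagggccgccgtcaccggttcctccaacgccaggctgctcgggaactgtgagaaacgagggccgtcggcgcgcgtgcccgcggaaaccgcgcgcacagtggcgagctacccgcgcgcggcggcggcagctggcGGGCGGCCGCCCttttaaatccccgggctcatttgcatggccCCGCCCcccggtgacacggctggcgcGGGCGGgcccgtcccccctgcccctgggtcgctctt
The *Hmga2* window held 1 GC box and 57.7% G and C, and the *Hmga1* window held 4 GC boxes and 74.0%. At least 1 GC box was found in 35.7% of 32851 windows of this length and at least 4 in 5.5%.

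The libraries held 31052936 to 34451956 counts each, and 18953 to 19942 rows had at least 1 count. At this depth 3 counts correspond to 0.0876 to 0.0948 CPM, where CPM are counts scaled to library size with TMM factors. The targeted gene *Clec7a* had 114, 230 and 92 counts in KO lungs, against 1974, 2732 and 6734 in WT lungs. Defining markers of lung epithelium were present, and 12 type 2 alveolar genes summed to between 5354 and 25446.5 CPM in KO and between 2912 and 13152 CPM in WT. Replicate 1 of either genotype differed from the remaining libraries. Summed mesothelial markers (10 genes) reached 692 CPM in KO replicate 1 and 792 CPM in WT replicate 1, against 147 to 242 CPM in the other 4 libraries, and secretory airway genes (12 genes) reached 12675 CPM in WT replicate 1 against 1039 and 375 CPM in the other WT libraries. For this reason member values are also given without both first replicates. In whole tissue, fewer cells of a type and less RNA per cell cannot be told apart.

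None of the 7 tested members passed the adjusted threshold of 0.05 in edgeR, and neither did any other gene (0 of 16633, 0%). At an unadjusted p under 0.05, edgeR listed *Hmga2* and *Hmga1* and 1968 genes in all (11.8%). DESeq2 called *Hmga2* and *Hmga1* among 678 genes (3.63%), of which 322 were lower in KO (1.73% of the 18663 genes with an adjusted p). All KO libraries lay below all WT libraries for 3 members, *Hmga2*, *Hmga1* and *Plag1*, and for 11.3% of all genes tested. For the other 4 tested members the groups overlapped, and no member had all KO libraries above all WT libraries, as 9.81% of genes did. The 7 estimates were all below 0, with a median log2 fold change of -0.67 for KO minus WT, the direction used everywhere, against -0.01 over all genes tested, of which 8485 had an estimate below 0. Without both first replicates, 6 of the 7 estimates were below 0 and their median was -0.48. *Hmga2* is counted in these numbers although it passed the filter on low counts only through its WT libraries. The shared sign also depended on the processing. *Igf2* turned to 0.27 when counts of the overlapping gene *Gm49394* were added, and *Igf2bp1* to 0.41 without the first WT replicate.

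**Figure D2:**
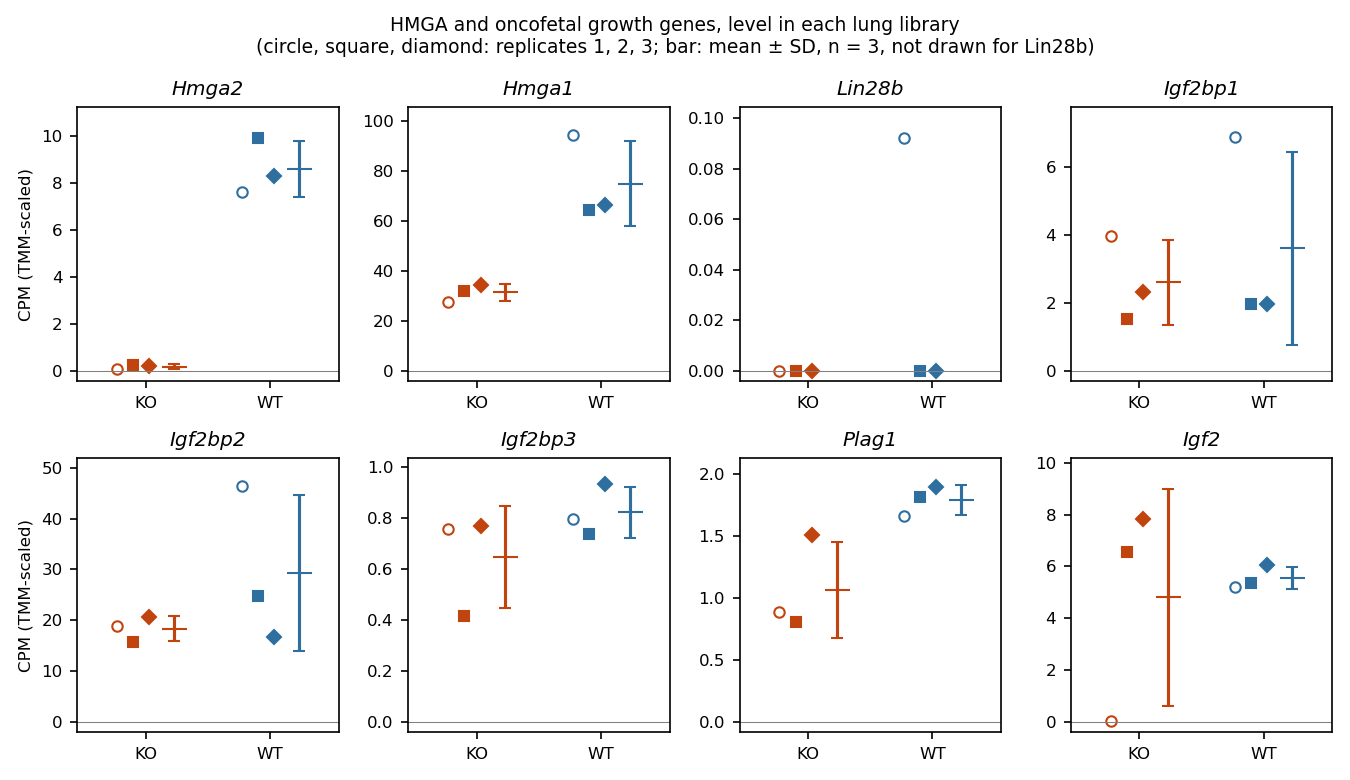
Level of 8 members in each library (vertical axes, TMM-scaled CPM), KO left of WT, with the mean and SD of 3 libraries beside the points. *Hmga2* sits between 0.0632 and 0.268 CPM in KO and between 7.62 and 9.93 CPM in WT, *Igf2bp1* and *Igf2bp2* are highest in the first WT replicate, and *Igf2* is near 0 in the first KO replicate.

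*Hmga2*, the HMGA gene most restricted to embryonic tissue and a known determinant of body size in mice, was near the counting floor in every KO lung and clearly read in every WT lung. It had 2, 9 and 7 counts in the KO libraries, against 248, 323 and 285 counts in the WT libraries. The lowest WT level was 28.4 times the highest KO level, so the groups lay far apart compared with the spread inside either of them. The means were 0.182 ± 0.106 CPM in KO and 8.62 ± 1.19 CPM in WT (SD, n = 3 each), a ratio of 47.3 with WT the higher, and the log2 fold change was -5.53 ± 0.53 (SE). By the size of the decrease *Hmga2* ranked 9th among all genes tested. The coefficient of variation was 58.4% among KO libraries, where counts were few, and 13.7% among WT libraries.

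The first WT replicate had the lowest *Hmga2* level of the WT libraries, at 7.62 CPM, and the first KO replicate had the lowest of the KO libraries, at 0.0632 CPM. Without both first replicates the log2 fold change was -5.21. The edgeR adjusted p was 0.203 with all 6 libraries and 0.0280 without these 2, and DESeq2 gave 1.68e-24 with all 6.

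*Hmga2* lies on chromosome 10 from 120361275 to 120476469 on the minus strand (GRCm38). The annotation places 2 genes inside it on the opposite strand, *1700006J14Rik* (120364157 to 120384336) and *9230105E05Rik* (120389523 to 120392793). Whether their exons overlap those of *Hmga2* was not examined. No source used here gives the strand setting of the counting, so any reads from shared exonic bases cannot be told apart. The 3 nearest tested protein-coding genes on each side were looked at after the values of *Hmga2* were seen. In each of these 6 genes KO and WT libraries overlapped. On the side of lower coordinates, *Llph*, *Tmbim4* and *Irak3*, 129 to 159 kb away, had log2 fold changes of -0.19, -0.04 and -0.33. On the other side, *Msrb3*, *Lemd3* and *Wif1*, 305 to 557 kb away, had log2 fold changes of -0.02, -0.03 and 1.27. *Wif1*, which encodes a secreted Wnt inhibitor, was at 2.66 ± 1.40 CPM in KO and 1.10 ± 0.241 CPM in WT (SD, n = 3 each).

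*Hmga1*, the HMGA gene that dividing adult cells also express, was the most abundant member and was lower in every KO library. It had 874, 1079 and 1121 counts in KO, against 3080, 2093 and 2273 counts in WT. The highest WT value came from the first replicate, and the lowest WT level was still 1.86 times the highest KO level. Mean levels were 31.4 ± 3.53 CPM in KO and 75.1 ± 16.9 CPM in WT (SD, n = 3 each), with a log2 fold change of -1.26 ± 0.22 (SE). Without both first replicates the estimate was -0.96. The edgeR adjusted p was 0.203, and DESeq2 gave 4.94e-04.

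Reads of *Hmga1* are shared with *Hmga1b*, a near copy on chromosome 11 (120762794 to 120764419, plus strand). Of the 50-base words in the *Hmga1b* transcript, 89.0% also occur in *Hmga1*, and none of the words of either gene occurs in *Hmga2*. *Hmga1b* had 193, 265 and 259 counts in KO, against 765, 476 and 483 counts in WT, which was between 17.5% and 19.9% of the summed counts in each of the 6 libraries. KO and WT libraries overlapped in this share. Summed over both copies, the means were 38.8 ± 4.56 CPM in KO and 92.5 ± 22.2 CPM in WT (SD, n = 3 each), with a log2 fold change of -1.26 ± 0.22 (SE).

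*Lin28b*, which encodes the let-7-blocking protein, was at or below the floor of 3 counts in all libraries. It had 0 counts in each KO library, against 3, 0 and 0 counts in the WT libraries, so no fold change is given. A count of 0 allows up to 0.0948 CPM by this floor in the first KO library, the smallest after TMM scaling. Its paralog *Lin28a*, which also blocks let-7 maturation, had 8, 0 and 0 counts in KO, against 8, 4 and 4 counts in WT, and was not tested either. At this depth no difference in either Lin28 gene was detectable.

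The Igf2bp genes encode proteins that bind and stabilise messages such as those of *Igf2* and *Hmga2*. *Igf2bp2*, the family member that stays on in adult tissue, had 596, 527 and 668 counts in KO, against 1513, 803 and 575 counts in WT. The third WT library lay inside the KO range once scaled, at 16.8 CPM against 15.7 to 20.6 CPM in KO. The means were 18.4 ± 2.49 CPM in KO and 29.3 ± 15.4 CPM in WT (SD, n = 3 each), with a log2 fold change of -0.67 ± 0.38 (SE). It was -0.18 without the first WT replicate and also -0.18 without both first replicates. Without the third WT replicate it was -0.95, so its size depended on which WT libraries were kept.

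*Igf2bp1*, which is expressed mainly in the embryo, had 126, 51 and 75 counts in KO, against 224, 64 and 67 counts in WT. In both genotypes the first replicate was highest, at 3.98 CPM in KO and 6.88 CPM in WT, and the other 4 libraries lay between 1.52 and 2.31 CPM. The mean was 2.60 ± 1.26 CPM in KO and 3.601 ± 2.84 CPM in WT (SD, n = 3 each), with a log2 fold change of -0.47 ± 0.64 (SE). It was -0.03 without both first replicates and 0.41 without the first WT replicate alone, and it was -0.91 and -0.19 without the first and the second KO replicate. The first replicates were also those with the highest summed mesothelial markers, and the part of that tissue in the *Igf2bp1* values was not tested.

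*Igf2bp3*, likewise mainly embryonic, had 24, 14 and 25 counts in KO, against 26, 24 and 32 counts in WT. Of its KO libraries, 2 lay inside the WT range, and the groups overlapped. The means were 0.649 ± 0.201 CPM in KO and 0.823 ± 0.1004 CPM in WT (SD, n = 3 each), with a log2 fold change of -0.34 ± 0.43 (SE). The estimate was -0.11 without KO replicate 2, the lowest library, and a difference of either size was within its error.

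*Plag1* had 28, 27 and 49 counts in KO, against 54, 59 and 65 counts in WT. The groups did not overlap, but the third KO library came close, and the lowest WT level was 1.10 times the highest KO level. The means were 1.07 ± 0.387 CPM in KO and 1.79 ± 0.121 CPM in WT (SD, n = 3 each), with a log2 fold change of -0.75 ± 0.40 (SE) and an edgeR adjusted p of 0.515. Without both first replicates the estimate was -0.67. The edgeR adjusted p of the Igf2bp genes and *Igf2* ranged from 0.539 to 0.967.

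**Figure D3:**
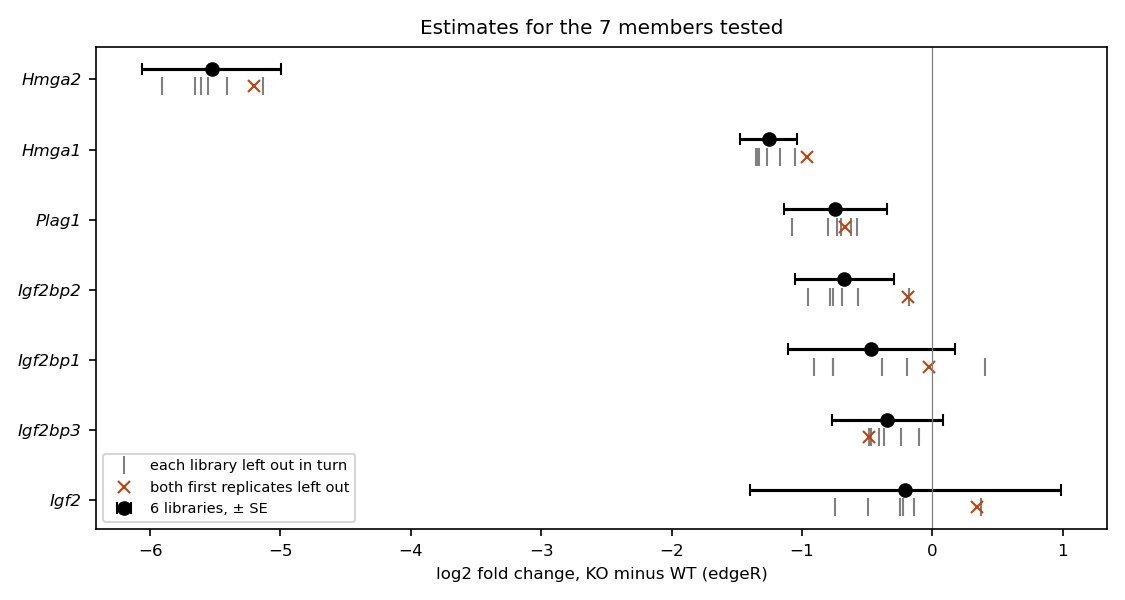
Log2 fold change (horizontal axis, KO minus WT, edgeR) of the 7 tested members with SE bars, with grey ticks for each library left out in turn and crosses for both first replicates left out. *Hmga2*, *Hmga1*, *Plag1*, *Igf2bp2* and *Igf2bp3* stay below 0 in every case shown, and *Igf2bp1* and *Igf2* cross it when 1 library is left out, at 0.41 and 0.37.

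*Igf2*, the growth factor gene of the network, had 1, 220 and 254 counts in KO, against 170, 175 and 207 counts in WT. The first KO library was nearly empty for *Igf2*, while the other KO libraries were above all WT libraries. *Igf2* overlaps *Gm49394*, an annotated coding gene on the same strand of chromosome 7 (142650769 to 142669942, against 142650766 to 142666816 for *Igf2*), and 62.8% of the 5723 exonic bases of *Igf2* lie in exons of *Gm49394*. *Gm49394* had 183, 6 and 1 counts in KO, against 2, 4 and 2 counts in WT. In the first KO library it therefore took 99.5% of the summed counts, against 0.392% to 2.65% in the other 5 libraries.

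Summed over both genes, the counts were 184, 226 and 255 in KO, against 172, 179 and 209 in WT. The first KO library then lay inside the WT range, and no library stood near 0. The means of the sum were 6.80 ± 1.03 CPM in KO and 5.63 ± 0.423 CPM in WT (SD, n = 3 each), with a log2 fold change of 0.27 ± 0.25 (SE). For *Igf2* as deposited, the means were 4.80 ± 4.18 CPM in KO and 5.55 ± 0.435 CPM in WT (SD, n = 3 each), with a log2 fold change of -0.21 ± 1.19 (SE). The sign of the *Igf2* estimate thus depended on how reads were divided between the overlapping genes in 1 library, and no source used here says how the counting assigned such reads. The edgeR adjusted p was 0.722 for the sum and 0.967 for *Igf2* as deposited.

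**Figure D4:**
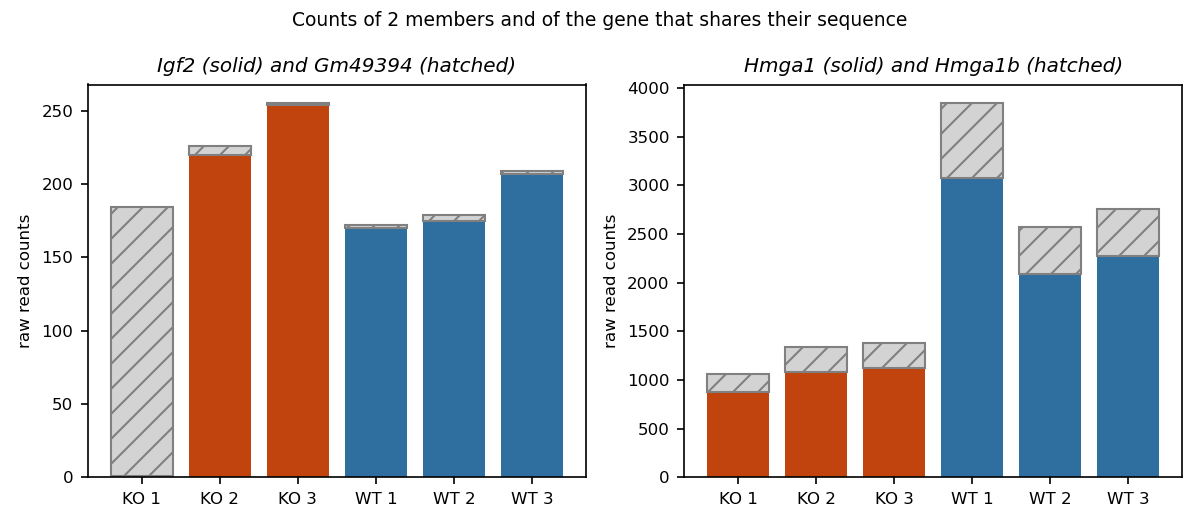
Raw read counts (vertical axes) of *Igf2* with *Gm49394* and of *Hmga1* with *Hmga1b*, stacked per library, KO left of WT. *Gm49394* holds 183 of 184 counts in the first KO library and at most 6 in the others, whereas *Hmga1b* holds 17.5% to 19.9% of the stack in every library.

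Levels of different genes were compared on the length-scaled FPKM values deposited by the authors, in which KO columns carry no usable replicate number. In KO lungs the order of mean FPKM was *Hmga1* (17.7 ± 2.59), *Igf2bp2* (4.66 ± 0.608), *Igf2* (1.21 ± 1.06), *Igf2bp1* (0.300 ± 0.141), *Plag1* (0.216 ± 0.0821), *Igf2bp3* (0.140 ± 0.0447), *Hmga2* (0.0446 ± 0.0262) and *Lin28b*, which is listed at 0 (SD, n = 3 each). In WT lungs it was *Hmga1* (42.7 ± 9.66), *Igf2bp2* (7.03 ± 3.33), *Hmga2* (2.19 ± 0.365), *Igf2* (1.29 ± 0.226), *Igf2bp1* (0.394 ± 0.294), *Plag1* (0.348 ± 0.0360), *Igf2bp3* (0.175 ± 0.0274) and *Lin28b*, which is listed at 0 in 2 of 3 libraries. *Hmga2* stood at place 7 of 8 in KO and at place 3 of 8 in WT, and the order of the other members was the same in both genotypes. Neighbours whose libraries overlapped, and which therefore have no order beyond their spread, were *Igf2bp1* and *Plag1* in both genotypes and, in KO, *Igf2* and *Igf2bp1* as well as *Plag1* and *Igf2bp3*. *Igf2* in KO spanned 0.000225 to 1.93 FPKM, a range that holds all KO values of *Igf2bp1*, and its place there is uncertain.

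The genes whose pattern over the 6 libraries was most like that of *Hmga2* were found by the root mean square difference of centred log2 CPM over 14692 genes with symbols that are not predicted models. They were *Vsig4* (0.62), *Acsl6* (0.67), *Clec7a* (0.76), *Naip6* (0.99) and *Psg22* (1.02), where 0 would be the same pattern. *Vsig4*, a complement receptor gene of tissue macrophages, had 9, 28 and 49 counts in KO, against 925, 556 and 464 counts in WT. *Acsl6*, a fatty acyl-CoA synthetase gene, had 5, 45 and 22 counts in KO, against 296, 481 and 329 counts in WT. *Naip6*, an inflammasome receptor gene, and *Psg22*, a pregnancy-specific glycoprotein gene, belong to families of near-identical genes, so their counts are uncertain. All 5 share the genotype contrast that chose *Hmga2*, and the nearness says no more than that they were low in KO and high in WT.

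The genes most like *Igf2* as deposited were *Rasd1* (0.82), *Ereg* (0.84), *Mchr1* (0.86), *Slc6a17* (0.86) and *Cyp2t4* (0.89). *Rasd1*, a Ras-related gene induced by steroid hormones, had 28, 500 and 421 counts in KO, against 635, 700 and 625 counts in WT. *Ereg*, which encodes the EGF family ligand epiregulin, had 102, 2261 and 2020 counts in KO, against 1728, 5440 and 4378 counts in WT. What these genes share with *Igf2* is a low first KO library, and for *Igf2* that value disappears when the counts of *Gm49394* are added.

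Other genes of the network were described from lists of symbols, and edgeR called 0 genes in each of them at the adjusted threshold, as over all genes. Over all genes DESeq2 called 3.63%, with 1.73% lower in KO. All KO libraries lay below all WT libraries for 11.3% of genes tested and above them for 9.81%. Some genes named from each list were picked by smallest unadjusted p in these data. Of the Lin28 and let-7 processing machinery, 13 genes were tested, 5 with a higher and 8 with a lower estimate and a median of -0.04, and DESeq2 called 0. *Dis3l2*, the exonuclease gene that removes uridylated let-7 precursors, was at 16.5 ± 0.879 CPM in KO and 21.7 ± 2.65 CPM in WT (log2 fold change -0.40 ± 0.18, SE), and *Dgcr8*, a microprocessor subunit gene, had -0.33 ± 0.15. The uridylyltransferase gene *Tut7* (-0.02) and the RNA-binding gene *Syncrip* (-0.21) were the most abundant of the list. The let-7 host genes *Huwe1* (0.08) and *Wdr82* (0.29) overlapped between genotypes.

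Of 19 other genes with let-7 sites, 9 had higher and 10 lower estimates, with a median of -0.05 that was 0.08 without both first replicates, and DESeq2 called 1 of them, lower in KO. That gene was *Arid3a*, a transcription factor gene, at 11.8 ± 0.387 CPM in KO and 19.8 ± 1.48 CPM in WT (log2 fold change -0.75 ± 0.17, SE, DESeq2 adjusted p 0.0151). The cyclin gene *Ccnd1* had 0.03 and the matrix gene *Thbs1* -0.46, and both overlapped between genotypes. The list thus had counts and a median near those of all genes tested.

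Of 17 other genes of the IGF axis, 8 had higher and 9 lower estimates, with a median of -0.05, and DESeq2 called 2, both lower in KO. *Igfbp3*, a binding protein gene for circulating and local IGFs, was at 20.1 ± 10.99 CPM in KO and 58.96 ± 6.79 CPM in WT (log2 fold change -1.55 ± 0.40, SE, DESeq2 adjusted p 0.0153). *Pappa*, which encodes a protease that frees IGF from its binding proteins, was at 12.5 ± 10.9 CPM in KO and 66.6 ± 21.6 CPM in WT (-2.42 ± 0.81, DESeq2 adjusted p 0.0277). The most abundant binding protein genes overlapped between genotypes, *Igfbp7* at 0.01 and *Igfbp4* at -0.05. Of 15 imprinted growth genes, 4 had higher and 11 lower estimates, with a median of -0.39 that was -0.21 without both first replicates. DESeq2 called 1 of these, *Dio3*, the gene of the thyroid-hormone-inactivating deiodinase, at 0.577 ± 0.325 CPM in KO and 2.06 ± 0.303 CPM in WT (-1.82 ± 0.49, adjusted p 0.0240). *Plagl1*, the relative of *Plag1* that regulates the imprinted network, was above WT in every KO library (0.66 ± 0.22, DESeq2 adjusted p 0.211).

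Other high mobility group genes encode HMGB, HMGN and related chromatin proteins. Of 13 tested, 5 had higher and 8 lower estimates, with a median of -0.02 that was -0.21 without both first replicates. DESeq2 called 1, *Hmgb3*, at 16.6 ± 3.04 CPM in KO and 28.5 ± 1.02 CPM in WT (log2 fold change -0.78 ± 0.19, SE, adjusted p 0.0498). *Hmgb1* (-0.02) and *Hmgn1* (0.23), the most abundant of them, overlapped between genotypes. Of 17 genes reported as regulated by or acting with HMGA2, 4 had higher and 13 lower estimates, with a median of -0.10 that was -0.19 without both first replicates. DESeq2 called 1, the mesenchymal transcription factor gene *Twist1*, at 0.345 ± 0.140 CPM in KO and 1.80 ± 0.745 CPM in WT (-2.36 ± 0.52, adjusted p 0.00472). *Ccnb2*, a mitotic cyclin gene that HMGA2 activates, was lower in every KO library (-0.85 ± 0.27, DESeq2 adjusted p 0.165), and *Tgfbr2* (-0.35) and *Cdh1* (0.47) overlapped.

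Fetal lung and other fetal marker genes had mostly higher estimates in KO. Of 15 tested, 11 had higher and 4 lower estimates, with a median of 0.25, and DESeq2 called 1, lower in KO. That gene was *Etv4*, a transcription factor gene of the fetal lung tip, at 3.48 ± 2.26 CPM in KO and 14.1 ± 2.51 CPM in WT (log2 fold change -2.01 ± 0.59, SE, adjusted p 0.0188). *Mdk*, which encodes the growth factor midkine, was above WT in every KO library, at 15.6 ± 5.10 CPM in KO and 7.61 ± 2.41 CPM in WT (1.04 ± 0.35, DESeq2 adjusted p 0.113). *Cd24a* (-0.06) and *Gpc3* (0.02) overlapped between genotypes.

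**Figure D5:**
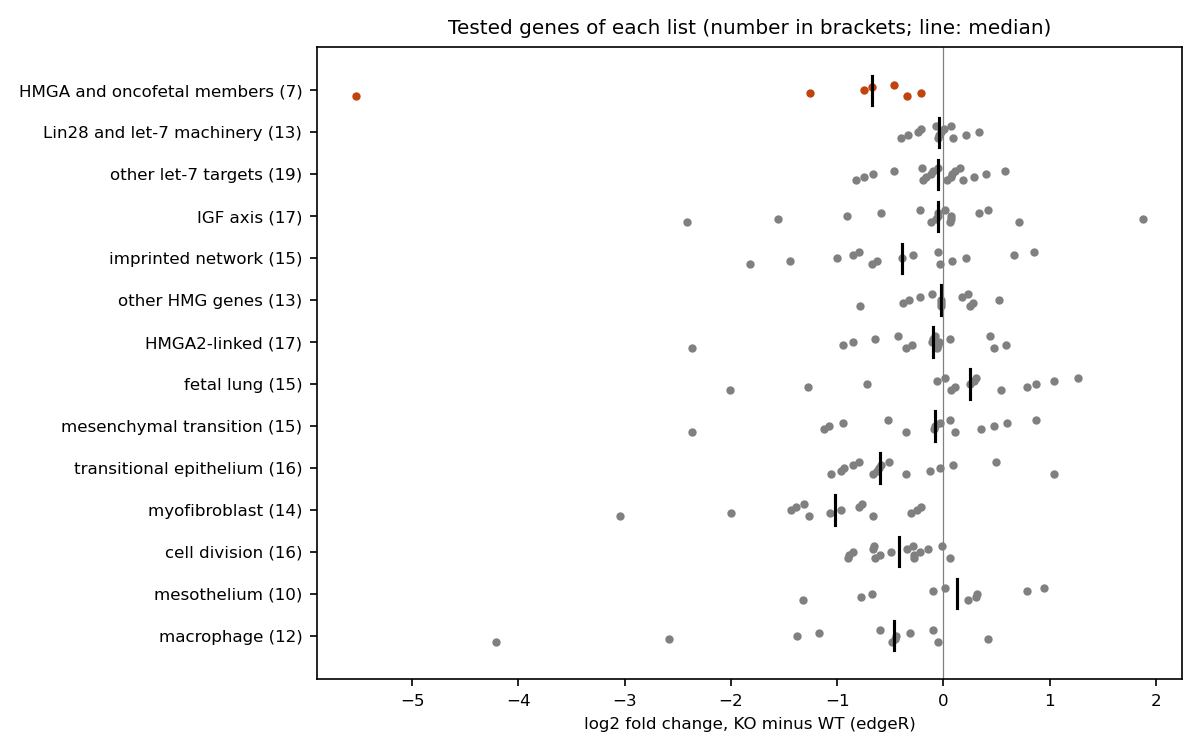
Log2 fold changes (horizontal axis, KO minus WT, edgeR) of the tested genes of each list, 1 point per gene, with a line at the list's median. The members have a median of -0.67, with *Hmga2* far to the left at -5.53, while the lists of other let-7 targets and of the IGF axis have medians of -0.05 and the myofibroblast list one of -1.02.

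Markers of cell types that could carry the members differed between the libraries as well. Of 14 myofibroblast and scar fibroblast genes, 14 had lower estimates, with a median of -1.02, and their summed level was 2706 to 14990.5 CPM in KO and 6695 to 24086 CPM in WT, overlapping between genotypes. Of 12 macrophage genes, 11 had lower estimates, with a median of -0.47. Their sum was 2297 to 6304 CPM in KO and 8658 to 11540 CPM in WT, with no overlap. This sum is weighted to the most abundant genes and does not count macrophages. Estimates in the macrophage list ranged from -4.21 to 0.42, with the general markers *Csf1r* at -0.05 and *Cd68* at -0.10. Of 16 cell division genes, 15 had lower estimates (median -0.42, and -0.75 without both first replicates), and their sum was 487 to 661 CPM in KO and 488 to 929 CPM in WT. The transitional alveolar epithelium that appears after injury had 13 lower estimates of 16, with a median of -0.59 that was 0.32 without both first replicates, and its sum was 1687 to 3150 CPM in KO and 1751 to 6254 CPM in WT. Other lists had mostly higher estimates. Of 10 lymphocyte genes, 10 had higher estimates, with a median of 1.45, and their sum was 64.9 to 92.9 CPM in KO and 17.8 to 41.1 CPM in WT, with no overlap. Of 10 alveolar fibroblast genes, 10 had higher estimates, with a median of 0.90, and their sum was 2751 to 3786 CPM in KO and 1577 to 2164 CPM in WT, with no overlap. Higher estimates were also found for 12 of 12 type 2 alveolar genes (median 1.20), whose sums are given above, and for 9 of 10 endothelial genes (median 0.31), with sums of 2012 to 4039 CPM in KO and 1190 to 3864 CPM in WT that overlapped. No marker of these 8 lists was at 0 in all libraries. The part of each cell type in the *Hmga2* and *Hmga1* values was not tested.

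In the cell division list, *Ccnb1* (log2 fold change -0.88) and *Ccnb2* (-0.85) were lower in every KO library, while *Mki67* (-0.28) and *Pcna* (-0.02) overlapped. With all 6 libraries *Hmga1*, at -1.26, was below all of these 4 in its estimate. Without both first replicates *Hmga1* was at -0.96, above *Ccnb1* (-1.18) and *Ccnb2* (-1.13) and below *Mki67* (-0.49) and *Pcna* (-0.26). In the list of 15 epithelial to mesenchymal transition genes, 6 estimates were higher and 9 lower. The median was -0.08, and -0.16 without both first replicates. The list mixes epithelial genes such as *Cdh1*, *Epcam* and *Grhl2* with mesenchymal genes, so its median describes neither kind. *Vim*, the intermediate filament gene of mesenchymal and blood cells, was at 1280 ± 315 CPM in KO and 2697 ± 446 CPM in WT (-1.08 ± 0.30, SE, DESeq2 adjusted p 0.0112). *Fn1*, the fibronectin gene, had -1.13 ± 0.95 and overlapped. Of 10 mesothelial markers, 6 had higher and 4 lower estimates, with a median of 0.12 that was -0.40 without both first replicates.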

How the data were processed

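Whole lungs of 3 KO and 3 WT mice, taken at day 14 after bleomycin, were sequenced with an NEBNext Ultra kit per the labels' protocols. The authors deposited raw counts per gene, without normalization, and FPKM values for the same rows. Submitters' processing notes name HISAT2 2.0.4, StringTie 1.3.4d and GRCm38 without roles. Annotation release, strand setting and the handling of shared reads: not given in the sources used here. KO columns in the FPKM table have an unexplained suffix and were assigned to the group only.

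Rows were filtered with filterByExpr (16633 of 26100 kept), scaled by TMM and tested 2-sided on genotype with a robust quasi-likelihood fit in edgeR 4.0.16 (R 4.3.3), with Benjamini-Hochberg adjustment and a threshold of 0.05. The SE was derived from the F statistic and is not separate from p. Alternatives were DESeq2 1.42.0, limma 3.58.1 (voom, log2(FPKM + 1) and log2(FPKM + 0.1) with at least 0.5 FPKM in 3 libraries), other size factors and filters, a replicate block and each library left out. The p-values compare the genotype difference with the spread between these 6 mice, which the fits estimate partly from all genes. Of these fits, only the main edgeR fit was tested on simulated counts, and the outcome is not given here.

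The members, lists and tests were chosen with earlier results of these data known. Named genes were the members, *Clec7a*, the 5 genes of most similar pattern to *Hmga2* and to *Igf2*, and from each list described up to 2 tested genes of highest mean CPM and up to 2 of smallest unadjusted p. A gene that this rule named is not reported here. Genes named for overlap, shared sequence or position beside a member were chosen after values were seen. So were *Lin28a* as a paralog, and *Csf1r* and *Cd68* as general macrophage markers. Sequences came from RefSeq (GRCm38.p6) and GENCODE M21 (GRCm38), gene coordinates from the latter. Floors cover counting error only, whereas the SD and SE include the spread between mice.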

Additional observations from a re-analysis of the deposited data

How the results depend on the processing

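edgeR called 0 genes with 6 libraries, 0 to 3 with 1 library left out, and 46 (18 higher and 28 lower in KO) without both first replicates, an alternative chosen after seeing the data. DESeq2 called 678 (356 higher, 322 lower). Other size factors and filters, limma-voom and limma on FPKM called 0. The log2 fold change of *Hmga2* was -5.53, ranged from -5.91 to -5.13 with 1 library left out, and was -5.55 in DESeq2 and -5.21 without both first replicates, where it passed the threshold in both. It was -1.60 on log2(FPKM + 1) and -3.99 on log2(FPKM + 0.1), scales that shrink low genes. The estimate of *Hmga1* ranged from -1.35 to -1.06 with 1 library left out. Signs turned for *Igf2bp1* without WT replicate 1 (0.41, range -0.91 to 0.41 over the libraries left out; the cause was not tested) and for *Igf2* without KO replicate 1 (0.37, range -0.75 to 0.37), without both first replicates (0.34) and with *Gm49394* added (0.27). *Igf2* was at -2.01 in limma-voom, -1.03 with the replicate block and -0.94 on log2(FPKM + 0.1), against -0.21 in edgeR. Same-numbered samples correlated at 0.35, 0.35 and -0.10 in their deviations from the group means, and other pairs at -0.51 to 0.47. Deviations within a group of 3 are not independent, so these values cannot decide whether the numbers pair the mice. No source used here says that they do. With the replicate number as a block, 0 genes were called, 3387 had an unadjusted p under 0.05, and *Hmga2* was at -5.62 (edgeR adjusted p 0.128). Depth limits *Lin28b*, *Igf2bp3* and the KO values of *Hmga2*, with at most 3, 32 and 9 counts per library.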
